A study of Mus musculus with 6 samples.

Results

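The genes described here were the 10 dual-specificity phosphatases of mitogen-activated protein kinases (MAPKs), namely Dusp1, Dusp2, Dusp3, Dusp4, Dusp5, Dusp6, Dusp7, Dusp8, Dusp10 and Dusp16. All 10 of the 10 listed symbols were found among the 13008 genes of the deposited expression table. The family was chosen by the difference of Dusp7 between the groups, which was already known from these data, so the values of Dusp7 are given as a description. Its standard error and interval rest on the spread between samples, which limma moderates with that of all genes. No test of the difference of Dusp7 is used as support. Expression was measured by RNA-seq of macrophages (MPs) sorted by FACS from mouse skeletal muscle on day 5 after injury with cardiotoxin, a snake venom toxin that destroys muscle fibers. The sorted cells carried GFP and F4/80 and had low Ly6C, the surface profile of repair-phase MPs. There were 3 Control and 3 Cripto KO samples, all from C57BL/6J mice of 3 months and labelled male.

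The Control samples are labelled wild type, and the study describes its GFP-Control mice as Tg:LysMCre::R26mTmG, which carry Cre and the GFP reporter like the Cripto KO mice of that design. The Cripto KO genotype was Tg:LysMCre::Cripto-/-, in which Cre is driven by the lysozyme M gene in the myeloid lineage and removes Cripto, a GPI-linked co-receptor that modulates signaling by TGF-beta family ligands. The study describes the deletion as incomplete in the MP population and as more efficient in GFP-positive cells, the kind sorted here. It also reports less Cripto protein in sorted GFP-positive MPs of the deleted mice. The Cripto gene, Tdgf1, was not analysed here, so the deletion was not checked in any of these samples.

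MAPKs are switched on by phosphorylation of a threonine and a tyrosine in their activation loop, and the dual-specificity phosphatases switch them off by removing both phosphates. Many of them are induced by the same MAPK activity that they end, which makes them negative feedback regulators. The family falls into inducible nuclear enzymes (Dusp1, Dusp2, Dusp4 and Dusp5), cytoplasmic enzymes that prefer ERK (Dusp6 and Dusp7) and enzymes that prefer p38 and JNK (Dusp8, Dusp10 and Dusp16). Dusp3 is a small phosphatase without the MAPK-binding domain of the others. In MPs, Dusp1 is best known for limiting p38 activity and cytokine production after inflammatory stimulation.

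The 10 genes lie on 10 different chromosomes. Dusp7 (ENSMUSG00000053716) was at chr9:106368632-106375724 on the plus strand of GRCm38 in GENCODE mouse release 21, where its longest transcript had 3 exons and 3213 bases. Tdgf1 is on the same chromosome, with 4.56 Mb between both genes, so Dusp7 is linked to the targeted gene and its 9 paralogs are not. Dusp6 (ENSMUSG00000019960), the closest relative of Dusp7 in substrate and location in the cell, was at chr10:99263231-99267489 on the plus strand. Dusp1 (ENSMUSG00000024190), the most abundant member, was at chr17:26505590-26562128 on the minus strand. The other nuclear enzymes were Dusp2 at chr2:127336159-127338376 (plus), Dusp4 at chr8:34807297-34819894 (plus) and Dusp5 at chr19:53529109-53542431 (plus). The remaining members were Dusp3 at chr11:101971143-101987013 (minus), Dusp8 at chr7:142079490-142095843 (minus), Dusp10 at chr1:184013302-184075636 (plus) and Dusp16 at chr6:134715468-134792625 (minus).

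The 250 bases before the start site are shown for these 3 genes because they were, in turn, the member that differed between the groups, its nearest functional partner and the member with the highest level. The sequences are from RefSeq on GRCm38.p6, whose promoter table matched 9 of the 10 members and held none for Dusp4. Capitals mark matches on either strand to the CRE (TGACGTCA), the CRE core (TGACG, also counted inside the CRE), the E-box (CACGTG), the AP-1 motif (TGANTCA), the GC box (GGGCGG) or the TATA box (TATAAA). The Dusp7 window is chr9:106368382-106368631, the Dusp6 window is chr10:99262981-99263230, and the Dusp1 window is chr17:26508473-26508722 on the minus strand.
Dusp7: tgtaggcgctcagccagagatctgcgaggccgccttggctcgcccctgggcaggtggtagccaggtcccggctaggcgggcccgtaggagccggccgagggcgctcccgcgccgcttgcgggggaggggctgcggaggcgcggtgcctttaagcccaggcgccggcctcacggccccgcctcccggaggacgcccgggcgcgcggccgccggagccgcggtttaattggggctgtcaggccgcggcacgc
Dusp6: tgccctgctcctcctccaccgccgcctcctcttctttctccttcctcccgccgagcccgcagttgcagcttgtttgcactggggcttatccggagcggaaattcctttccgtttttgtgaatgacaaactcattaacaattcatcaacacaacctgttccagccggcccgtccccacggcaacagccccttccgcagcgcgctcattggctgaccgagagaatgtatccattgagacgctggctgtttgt
Dusp1: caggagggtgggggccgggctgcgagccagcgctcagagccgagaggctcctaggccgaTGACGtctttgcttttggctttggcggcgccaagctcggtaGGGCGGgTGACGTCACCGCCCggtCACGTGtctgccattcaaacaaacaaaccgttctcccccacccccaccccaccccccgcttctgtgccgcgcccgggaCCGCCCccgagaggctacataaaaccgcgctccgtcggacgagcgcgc

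The Dusp1 window held 1 CRE, 3 CRE cores, 1 E-box and 3 GC boxes, while no match to these letters was found in the windows of Dusp7 and Dusp6. Among all 32851 promoter windows of the same length, 1.55% held a CRE, 17.8% a CRE core, 6.02% an E-box, 6.75% an AP-1 motif, 32.7% a GC box and 12.4% a TATA box. Dusp8 was the other member with a CRE, and its window held 2. The GC content was 77.2% for Dusp7, 56.4% for Dusp6 and 68.4% for Dusp1, against a median of 52.4% over all windows.

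Total reads per sample were between 12688968 and 15659847. Values are those of the deposited table, in reads per 1000000 reads of the normalized library, and 95% intervals on reads cover counting error only. The macrophage markers summed to 13764 to 13918 in Control against 12927 to 14097 in Cripto KO samples, and both lymphocyte markers in the table were at 3 reads or fewer in every sample. Neutrophil markers summed to 1.67 to 1.93 against 2.00 to 4.31, and endothelial markers to 56.6 to 67.2 against 61.3 to 66.8. Muscle markers summed to 35.1 to 71.3 against 19.3 to 55.1, and 5 of 8 had an unadjusted p under 0.05 in limma, 4 of them higher in Control, with 0 of 8 called. The largest difference was that of Myh4, a fast myosin heavy chain (10.5 ± 6.58 against 2.18 ± 3.00, adjusted p = 0.493 in limma). The 8 fibroblast markers were all higher in Cripto KO samples, with a sum of 465 to 487 in Control against 547 to 598 in Cripto KO, and 0 of 8 passed the adjusted test in limma while 5 had an unadjusted p under 0.05. The 12 heat-shock genes summed to 15442 to 18717 in Control against 21198 to 23372 in Cripto KO samples, with 10 at an unadjusted p under 0.05 in limma, 0 called by limma or edgeR and 6 by DESeq2. Although all samples are labelled male, Xist reached 171 in Control replicate 1, compared with 0.114 to 0.885 elsewhere, and Lyz2 reached 11066 in Control replicate 2, compared with 21.2 to 28.3 elsewhere. LysMCre is an insertion into Lyz2, so this library stands apart from the other 5 at the locus that carries Cre. Control replicates 1 and 3, at 25.2 and 21.4, lay within the range of the Cripto KO samples. The Control samples, all labelled wild type, were therefore not alike at this locus. The part of these differences in the results below was not tested, and in bulk samples fewer cells of a type and less RNA per cell cannot be told apart.

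Dusp7 was the 1 member whose values were lower in all Cripto KO samples than in all Control samples. Its values were 47.1, 40 and 46.4 in the 3 Control samples against 27.5, 25.9 and 25.8 in the 3 Cripto KO samples. The lowest Control sample lay well above the highest Cripto KO sample, and the 3 Cripto KO samples were close to each other. The mean was 44.5 ± 3.91 (SD, n = 3) in Control against 26.4 ± 0.953 (SD, n = 3) in Cripto KO, a log2 fold change (Control/Cripto KO) of 0.75 with a standard error of 0.09 and a 95% interval of 0.54 to 0.95. On the linear scale Control was 1.68-fold higher, with an interval of 1.46 to 1.94.

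These values rested on 528 to 639 reads per Control sample and 366 to 433 reads per Cripto KO sample. The exact Poisson 95% interval of the lowest of them, 366 reads, was 329 to 405 reads, or from -9.98% to 10.8% of the count, which is counting error alone and not the spread between samples. Without Control replicate 1 the log2 fold change of Dusp7 was 0.71, and without Control replicate 2 it was 0.82, so it was of similar size without the library with Xist and without the one with high Lyz2. Of the 3376 stretches of 31 bases in the annotated Dusp7 transcripts, 20 (0.592%) occurred in another gene and none in another member.

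In the limma fit over all genes, 17 genes (0.131%) had an adjusted p under 0.05, 11 of them higher in Control. 1 of the 10 members was among them, which was Dusp7, the gene the family was selected on, so nothing is read from this count. The genes nearest to the threshold were Mmp9 (adjusted p = 0.03126 in limma) and mt-Co2 (adjusted p = 0.0491) just inside it, and Snx33 (adjusted p = 0.0531) and Ptgs2 (adjusted p = 0.0571) just outside. A log2 fold change of the size of that of Dusp7 or more, in either direction, was found for 301 of the 11960 genes with a mean value of at least 1.

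**Figure D1:**
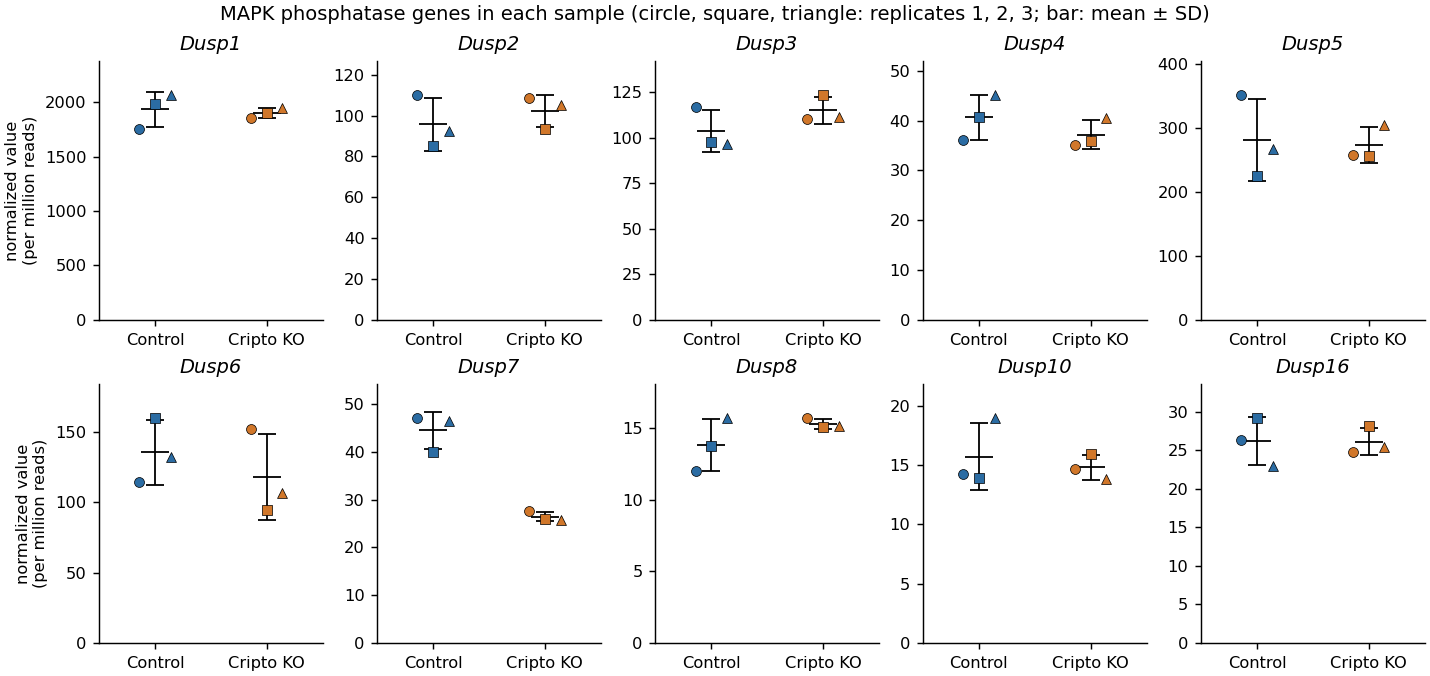
Normalized values (vertical axes, per 1000000 reads, starting at 0) of the 10 MAPK phosphatases in the Control (blue) and Cripto KO (orange) samples, with circles, squares and triangles for replicates 1, 2 and 3 and bars for the mean ± SD (n = 3). Dusp7 is the 1 gene whose groups are apart, with 40 to 47.1 in Control against 25.8 to 27.5 in Cripto KO, while the groups of the other 9 genes overlap.

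The other 9 members, which are unlinked to Tdgf1, showed no change that passed the test. In the limma fit 0 of the 9 had an adjusted p under 0.05, and the lowest adjusted p was 0.690. At an unadjusted p under 0.05 the count was also 0 of 9 in limma, edgeR and DESeq2, against 8.59% of all genes in limma. It was not 0 in each alternative, since Dusp3 passed this level with quantile normalization (log2 fold change -0.20), Dusp3 (-0.24) and Dusp2 (-0.20) without Control replicate 1, and Dusp6 (0.42) without Cripto KO replicate 1, with adjusted p between 0.324 and 0.608 in limma. In the fit of all samples 0 of 9 had groups that did not overlap, against 14.5% of all genes. Their log2 fold changes (Control/Cripto KO) ran from -0.16 to 0.22 with a median of 0.02, beside a median of 0.01 over all 13008 genes. All 9 intervals held 0, with widths between 0.39 and 0.79, and the highest upper bound was 0.61, that of Dusp6.

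**Figure D2:**
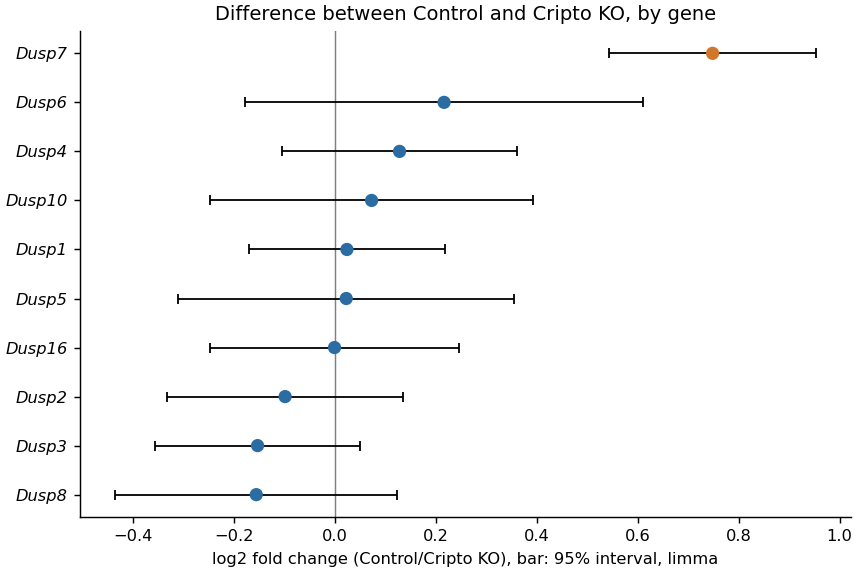
Log2 fold change (Control/Cripto KO, horizontal axis) of each member with its 95% interval from limma, ordered by size. Dusp7 (orange) is at 0.75 with an interval of 0.54 to 0.95, and the intervals of the other 9 genes (blue) all hold 0.

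Among the inducible nuclear phosphatases, Dusp1 was very abundant, and its groups overlapped. It had 1753, 1984 and 2067 in Control against 1855, 1897 and 1946 in Cripto KO, so that all Cripto KO values lay within the range of the Control values. The log2 fold change was 0.02 with an interval of -0.17 to 0.22 (adjusted p = 0.961 in limma). Its mean level exceeded that of 99.6% of the genes in the table.

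Dusp5, a nuclear phosphatase of ERK, was the most variable of this class. It had 352, 225 and 268 in Control against 258, 257 and 306 in Cripto KO samples, with Control replicate 1 the highest of all and Control replicate 2 the lowest. The log2 fold change was 0.02 with a wide interval of -0.31 to 0.36 (adjusted p = 0.978 in limma), and the sign turned in 3 of the 6 fits that left out 1 sample. Of the stretches of 31 bases in its transcripts 21.2% were shared with an antisense gene, AC137853.2, and whether reads were counted by strand is not given in the sources used here.

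Dusp2, a phosphatase of ERK and p38 that is typical of activated leukocytes, had 110, 85.03 and 92.3 in Control against 108, 93.3 and 105 in Cripto KO. The highest value was a Control sample and so was the lowest. Its log2 fold change was -0.10 with an interval of -0.33 to 0.14 (adjusted p = 0.823 in limma). Dusp4, which acts on ERK and JNK, had 36.1, 40.8 and 45.2 in Control against 35.0, 36.0 and 40.4 in Cripto KO, with a log2 fold change of 0.13 and an interval of -0.10 to 0.36 (adjusted p = 0.768 in limma). The 3 Control samples of Dusp4 reached higher, but 1 of them lay among the Cripto KO values.

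Dusp6, the cytoplasmic ERK phosphatase that is most like Dusp7 in its known role, had groups that overlapped. It had 114, 160 and 132 in Control against 152, 94.8 and 107 in Cripto KO, and Cripto KO replicate 1 lay above 2 of the 3 Control samples. The log2 fold change was 0.22 with an interval of -0.18 to 0.61 (adjusted p = 0.768 in limma), the widest interval in the family. Single libraries decided its size, which was 0.42 without Cripto KO replicate 1, 0.33 without Control replicate 1, 0.09 without Control replicate 2 and 0.07 without Cripto KO replicate 2. The residual SD of Dusp6 was 0.305 on the log2 scale, larger than that of 75.2% of genes, whereas that of Dusp7 was 0.0989 and larger than that of 23.3%.

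The share of Dusp7 in the summed level per kilobase of Dusp6 and Dusp7 was 26.4%, 17.9% and 23.4% in Control against 13.6%, 19.2% and 17.4% in Cripto KO. These shares overlapped between the groups, and Dusp6 varied within both. Relative to the mean log2 value of the other 9 members, Dusp7 ranged from -1.0 to -0.78 in Control and from -1.66 to -1.58 in Cripto KO, and here the groups did not overlap.

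The phosphatases of p38 and JNK were the least abundant class. Dusp16 had 26.3, 29.2 and 23.0 in Control against 24.8, 28.1 and 25.4 in Cripto KO, with all Cripto KO values inside the Control range. Its log2 fold change was -0.00 with an interval of -0.25 to 0.25 (adjusted p = 0.998 in limma). Dusp10 had 14.2, 13.9 and 19.0 in Control against 14.7, 15.9 and 13.8 in Cripto KO (log2 fold change 0.07, interval -0.25 to 0.39, adjusted p = 0.918 in limma), and Control replicate 3 stood above the other 5 samples. Dusp8 had 12.0, 13.7 and 15.7 in Control against 15.7, 15.1 and 15.1 in Cripto KO (log2 fold change -0.16, interval -0.44 to 0.12, adjusted p = 0.765 in limma), so that 2 Control samples lay below all Cripto KO samples and 1 among them. Dusp8 also had the fewest reads of the family, 163 in Control replicate 1, with an exact Poisson interval of 139 to 190.

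Dusp3, the small phosphatase, had the lowest p of the unlinked members. It had 117, 97.7 and 96.6 in Control against 110, 124 and 112 in Cripto KO, and Control replicate 1 lay above 2 of the Cripto KO samples. The log2 fold change was -0.15 with an interval of -0.36 to 0.05 (adjusted p = 0.690 in limma). An antisense gene, Gm20659, overlaps its end and shared 552 of the 619 stretches of 31 bases that Dusp3 had in common with other genes. Gm20659 was at 14.7 to 23.3 in Control against 13.4 to 18.7 in Cripto KO.

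To compare levels between genes, values were divided by the length of the longest transcript. Dusp1 led by far, with 829 ± 47.1 per kilobase (SD over all 6 samples), followed by Dusp5 with 112 ± 18.1, Dusp2 with 61.3 ± 6.32, Dusp6 with 45.3 ± 9.27 and Dusp3 with 24.6 ± 2.38. Dusp4 was at 14.2 ± 1.43, Dusp7 at 11.04 ± 3.18, Dusp10 at 5.46 ± 0.707, Dusp16 at 5.12 ± 0.441 and Dusp8 at 3.03 ± 0.299. The order of the group means was the same in Control and in Cripto KO, and Dusp1 made up 70.4% to 76.5% of the summed level of the family.

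Of the 9 pairs of neighbours in this order, no test result is given for those that hold Dusp7, but the adjustment covered all 9. Of the other 7 pairs, 5 differed in the same direction in 6 of 6 samples (adjusted p = 0.0469 over the 9 pairs, exact two-sided sign-flip permutation test, the smallest that 6 samples can give here). Dusp7 was above Dusp10 in 6 of 6 samples too, and this pair enters that adjusted p. No pair is therefore called different from that value, and the direction in the samples is given as a description. The largest step was from Dusp1 to Dusp5, 7.45-fold per kilobase. Dusp2 and Dusp6 did not pass the test (1.37-fold, Dusp2 higher in 5 of 6 samples, adjusted p = 0.0703, exact sign-flip test), and this test cannot pass once 1 of the 6 samples goes the other way. Dusp10 and Dusp16 did not pass it either (1.06-fold, 3 of 6 samples, adjusted p = 0.625, exact sign-flip test). Per kilobase, Dusp7 was at 13.8 ± 1.22 in Control, beside 14.8 ± 1.65 for Dusp4, and at 8.23 ± 0.297 in Cripto KO, beside 13.6 ± 1.05 for Dusp4.

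**Figure D3:**
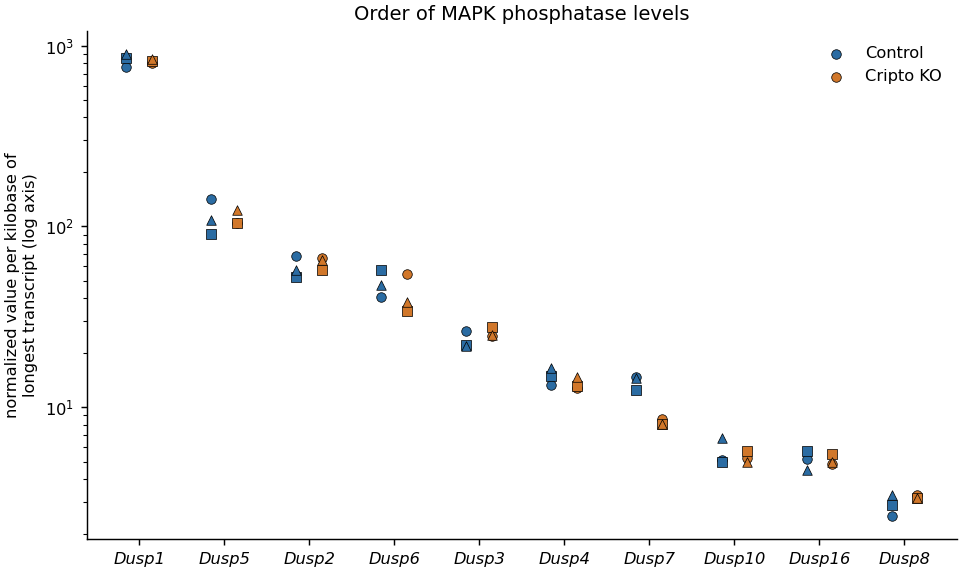
Normalized value per kilobase of the longest transcript (vertical log axis) for each member in the order of mean level, with Control in blue, Cripto KO in orange and circles, squares and triangles for replicates 1, 2 and 3. Levels span from 829 for Dusp1 to 3.03 for Dusp8, and Dusp7 is the gene whose orange points fall below all of its blue points.

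By class, the inducible nuclear enzymes summed to 1024.5 ± 47.6 per kilobase in Control against 1008.5 ± 31.7 in Cripto KO, which was 90.6% to 92.5% of the family in each sample. The cytoplasmic ERK phosphatases summed to 62.3 ± 7.08 and 50.4 ± 11.1, and the p38 and JNK phosphatases to 13.6 ± 0.904 and 13.6 ± 0.656. The whole family was at 1124 ± 48.8 in Control against 1098 ± 26.9 in Cripto KO (SD, n = 3), so the difference in Dusp7 was small beside the summed level of the family, most of which was Dusp1.

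The genes with the pattern most like that of Dusp7 were found by the root mean square difference of log2 values, each centred on its own mean over the 6 samples, among 11960 genes. They were Plcd1 (0.0990), Rpl29 (0.137), Cst7 (0.142), Gm12751 (0.146) and Fgfrl1 (0.147). Plcd1 and Rpl29 are on chromosome 9 like Dusp7, and the other 3 on chromosomes 2, 4 and 5. Plcd1, a phospholipase C, had 2.25, 2.16 and 2.24 in Control against 1.17, 1.24 and 1.28 in Cripto KO. These are low values, since 3 reads correspond to 0.222 to 0.286, depending on the sample. The likeness of Plcd1, and of Cst7 with a mean of 1.62, therefore rests on few reads. The nearest member of the family was Dusp4, at 0.346. The 5 genes were picked as the closest of all 11960, so any other gene lies farther away, and nothing is read from this distance. The genes most like Dusp1 were Aak1 (0.0229), Soat1 (0.0241), Rtn4 (0.0251), Hsd17b12 (0.0254) and Snrpa1 (0.0257), all of which varied little over the samples.

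Since Dusp7 is linked to Tdgf1, its neighbours on the chromosome were examined. Within 1 Mb of Dusp7 the table held 26 other genes, of which 12 (46.2%) had an unadjusted p under 0.05 in limma and 14 (53.8%) had groups that did not overlap, against 8.50% and 14.4% of the genes elsewhere. Of the 12 genes, 10 were higher in Control, like Dusp7. The 2 called genes were Alas1, the first enzyme of heme synthesis, and Cish, an inhibitor of cytokine signaling, each with an adjusted p of 0.0235 in limma. Neither was called with quantile normalization (adjusted p = 0.0601 and 0.0590), with the replicate block (0.0572 and 0.0729) or without any 1 of the Cripto KO samples (0.0589 to 0.125 for Alas1 and 0.0665 to 0.125 for Cish). Without Control replicate 2 only Alas1 was called, and without Control replicate 3 only Cish, while the robust option and DESeq2 each called 4 genes in this window.

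Alas1 had 115, 88.4 and 85.2 in Control against 51.4, 51.6 and 47.0 in Cripto KO, a log2 fold change of 0.93. Cish had 28.5, 14.3 and 10.1 in Control against 2.25, 2.58 and 2.45 in Cripto KO, a log2 fold change of 2.73. Both had all Control samples above all Cripto KO samples, and both were highest in Control replicate 1. Without that sample their log2 fold changes were 0.80 and 2.31, and both were still called (adjusted p = 0.0054 each in limma). The genes on both sides of Dusp7 in the table, named after their values were seen, were Poc1a at 18.1 kb and Rpl29 at 53.7 kb. The log2 fold change of Poc1a was 0.56 (adjusted p = 0.559 in limma) and that of Rpl29, a protein of the large ribosomal subunit, was 0.53 (adjusted p = 0.0976 in limma).

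The same count around the unlinked paralogs, a comparison added after the values had been seen, gave 12 of 215 genes (5.58%) with an unadjusted p under 0.05 and 30 (13.95%) with groups that did not overlap, and 0 called genes. The highest share at an unadjusted p under 0.05 around a single paralog was 2 of 11 genes (18.2%), around Dusp5. At this level it was 0 of 6 genes around Dusp6 and 1 of 47 around Dusp1. The share with groups that did not overlap varied more in these small windows. It was highest around Dusp10, with 4 of 10 genes (40%), and next around Dusp5, with 4 of 11 (36.4%). In the wider window of 5 Mb around Dusp7, which includes the position of Tdgf1, 24 of 133 genes (18.0%) had an unadjusted p under 0.05, 18 of them higher in Control. The 133 genes include the 26 within 1 Mb, which gave 12 of the 24, so the wider share is not separate from the nearer one. Only Alas1 and Cish were called in the wider window too. By the labels, all Cripto KO samples carry the targeted Cripto allele on its stretch of chromosome 9 and the wild type Control samples do not, so an effect of the loss of Cripto on Dusp7 and one that goes with this stretch cannot be told apart.

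**Figure D4:**
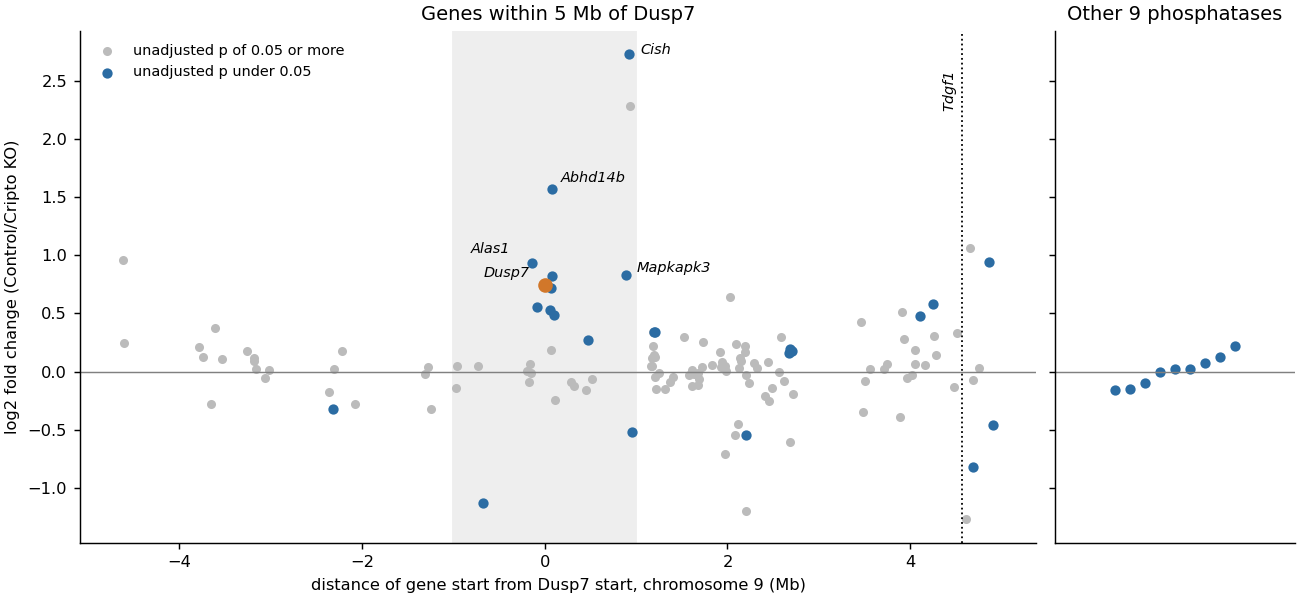
Left, log2 fold change (Control/Cripto KO, vertical axis) of the genes within 5 Mb of Dusp7 (orange) against the distance of their start from the start of Dusp7 in Mb, with genes at an unadjusted p under 0.05 in blue, the others in grey, a shaded band within 1 Mb and a dotted line at the Cripto gene Tdgf1, drawn at 4.56 Mb. Right, the other 9 phosphatases on the same vertical axis, which lie between -0.16 and 0.22, whereas 10 of the blue genes within 1 Mb of Dusp7 lie above 0.

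The rest of the MAPK pathway was followed in 6 lists, of which 79 of 93 genes were in the table. None of the 79 was called by limma, edgeR or DESeq2, and 7 (8.86%) had an unadjusted p under 0.05 in limma, close to the 8.59% of all genes. Their median log2 fold change was 0.03. Groups did not overlap for 13 of them (16.5%), beside 14.5% of all genes.

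In the ERK cascade, the kinases that Dusp6 and Dusp7 act on and their activators, 0 of 14 genes had an unadjusted p under 0.05, and the log2 fold changes were between -0.15 and 0.25. The gene with the lowest p was Map2k1, which activates ERK, with 89.8 ± 3.33 in Control against 80.9 ± 4.00 in Cripto KO (adjusted p = 0.598 in limma). Of the p38 and JNK cascades 2 of 15 genes had an unadjusted p under 0.05, both higher in Control, with a range of -0.13 to 0.24. Map2k4, a kinase upstream of JNK, was at 35.0 ± 1.54 and 30.0 ± 2.12 (adjusted p = 0.529 in limma).

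Among the 10 kinases activated by MAPKs, Mapkapk3, a kinase downstream of p38, had the largest difference. It had 114, 64.2 and 62.3 in Control against 46.1, 39.0 and 45.3 in Cripto KO (log2 fold change 0.83, standard error 0.20, adjusted p = 0.373 in limma). All Control samples were above all Cripto KO samples. Without Control replicate 1 the log2 fold change was smaller, 0.55, while the adjusted p was lower, 0.0770 in limma. Mapkapk3 was not called in any fit. Mapkapk3 was the 1 gene of the 79 that lay within 1 Mb of Dusp7. The other 9 kinases of this list had log2 fold changes of at most 0.20 in size.

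The other feedback inhibitors of ERK signaling, which include the Sprouty and Spred proteins, had 1 of 10 genes at an unadjusted p under 0.05. This was Spred3, a weakly expressed gene with 1.82 ± 0.272 in Control against 3.08 ± 0.406 in Cripto KO (log2 fold change -0.76, adjusted p = 0.479 in limma). Of the early genes that MAPK activity induces 3 of 19 had an unadjusted p under 0.05, 2 higher in Control against 1 in Cripto KO. Atf3, a stress-induced transcription factor, had the lowest p, with 1480 ± 102 and 1255 ± 73.3 (adjusted p = 0.500 in limma). The remaining dual-specificity phosphatases had 0 of 11 genes at that level, led by Dusp11, a phosphatase of RNA, with 74.3 ± 5.12 and 66.3 ± 3.77 (adjusted p = 0.623 in limma). Dusp9, the third cytoplasmic ERK phosphatase, was detected at 1.21 to 2.23.

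**Figure D5:**
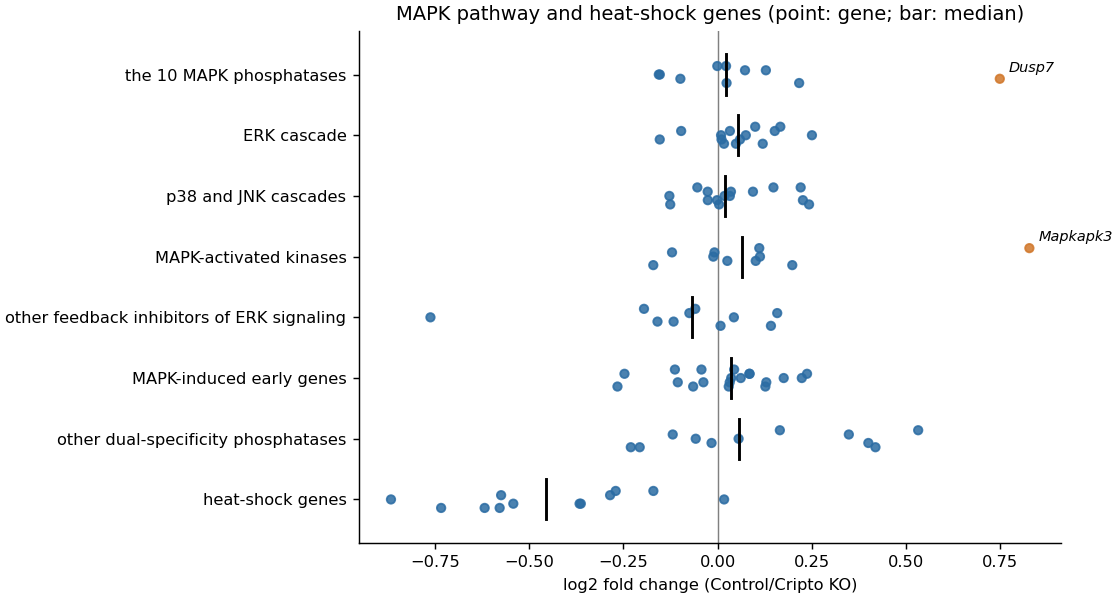
Log2 fold change (Control/Cripto KO, horizontal axis) of the 10 MAPK phosphatases, of 6 lists of MAPK pathway genes and of the heat-shock genes, with 1 point per gene and a bar for the median of each list. Dusp7 at 0.75 and Mapkapk3 at 0.83 (orange) stand apart from their lists, as does Spred3 at -0.76 (blue). The heat-shock genes have a median of -0.45.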

How the data were processed

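RNA-seq libraries were prepared from 200 ng of RNA of sorted MPs, 3 Control and 3 Cripto KO samples grouped by the labels. Per the paper and the submitters' processing notes, the authors trimmed reads with cutadapt 1.7.1, dropped those under 30 bp, quantified them with RSEM 1.2.20 on GRCm38 (Ensembl release 91) and normalized them with limma. The deposited signal is a normalized value per gene, equal to reads plus 0.5 per 1000000 reads of the normalized library. Whole reads were recovered from it, and 100.0% of 78048 values were within 0.01 of a whole read. No column was left unmapped.

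The main test was limma 3.58.1 (R 4.3.3), a linear model with empirical Bayes moderation (eBayes with its trend option) fitted to log2 values, over all 13008 genes with Benjamini-Hochberg adjustment. The edgeR quasi-likelihood test (4.0.16) and DESeq2 (1.42.0) were run on the recovered reads. The scripts were tested on simulated data. As alternatives, a pseudocount of 0.5 or 1 was added, genes with a mean value under 1 were dropped, values were quantile-normalized, the robust option of eBayes was used, the replicate number was added as a block, and samples were left out 1 at a time. The study calls its replicates biological. The labels do not tie them to animals, and p-values set a difference against the spread between these samples, which limma moderates over all genes.

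The members and gene lists were chosen with earlier results of these data known. Named are the members, the 5 genes most like Dusp7 and Dusp1 in pattern, the called genes of each list or the one with the lowest p, and the called genes within 1 Mb of Dusp7. Positions are from GENCODE mouse release 21. Transcript stretches of 31 bases were compared with all annotated transcripts. Figures were drawn with matplotlib 3.10.9.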

Additional observations from a re-analysis of the deposited data

How the results depend on the processing

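The log2 fold change of Dusp7 stayed between 0.73 and 0.75 over 8 alternative fits of all samples and between 0.71 and 0.82 when 1 sample was left out, and the 140 values of the members over all alternatives each moved by less than 1 SD. The number of called members was 1 with limma and fell to 0 with quantile normalization and to 0 with the replicate block, and ranged from 0 to 1 when 1 sample was left out, being 0 without Control replicate 3 and without each of Cripto KO replicates 1, 2 and 3, fits with fewer samples. None of the other 9 members was called in any of these fits. Over all genes 17 were called, against 6 with quantile normalization, 31 with the robust option, 71 with DESeq2 and 2 with the replicate block, and between 5 (without Cripto KO replicate 2) and 31 (without Control replicate 1) when 1 sample was left out. The cause of these shifts was not tested. The replicate numbers did not pair the samples, since the deviations of same-numbered samples had correlations of -0.21, -0.01 and -0.00, and no sample correlated best with its own number. The sign of the log2 fold change turned for Dusp5 in 1 of 8 fits of all samples, and with 1 sample left out for Dusp5 in 3, Dusp16 in 2, and Dusp1 and Dusp10 in 1 of 6 each. The share of genes with an unadjusted p under 0.05 within 1 Mb of Dusp7 was 34.6% to 50% over all fits, against 5.63% to 10.4% elsewhere. With the median transcript length in place of the longest, 5 of 10 members kept their rank in the order of levels and Dusp7 moved above Dusp3. With 5 samples the smallest p of the sign-flip test is 0.0625, so the order was not tested with a sample left out. Depth limits Dusp8 most, whose fewest reads allow an error of -14.8% to 16.6% from counting alone.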
